A study of Homo sapiens with 12 samples.

Results

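Adhesion and splicing genes that distinguish epithelial from mesenchymal cells were followed across 4 HEK293T lines that carry different forms of EZH2. The genes were taken by symbol from a table of RNA-Seq read counts. Of the 9 symbols listed, 8 had a row among the 14438 genes of the table: CDH1, CDH2, EPCAM, ESRP2, PKP2, PKP3, SPINT1 and SPINT2. ESRP1 had no row and was not analysed here. The 8 genes all passed the filter on low counts and were among the 14263 genes tested. The genes were chosen by symbol, with results of these counts already known, and no threshold or contrast on measured levels was stated for the choice. The comparisons of these genes are therefore a description of their counts, and the share of all genes called is given beside each count of called genes.

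EZH2 is the methyltransferase of Polycomb repressive complex 2 (PRC2), which places H3K27me3, a mark of silenced genes. The study asked how single amino acid changes in its active site alter expression in an isogenic background. HEK293T is a line of transformed human embryonic kidney cells. RNA was measured in 12 samples, with 3 replicates each of EZH2 WT, the gain-of-function (GOF) mutants EZH2 Y641F and EZH2 A677G, and the loss-of-function (LOF) double mutant EZH2 H689A/F667I. Each line came from infection with a lentivirus that carried the EZH2 form, followed by blasticidin selection, so a line stands for 1 infected population and the endogenous EZH2 gene was still present in all 4. The EZH2 WT line is the control here, and an empty-vector line was not analysed here. The study calls the replicates of its platforms biological, but nothing says whether these samples came from separate cultures. The p-values therefore measure the spread between these samples, which may be technical. The 3 mutant lines were all compared with the same 3 EZH2 WT samples, so these comparisons are not independent of each other.

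Epithelial cells are held together by adherens junctions, built from cadherins and catenins, and by desmosomes, in which plakophilins link desmosomal cadherins to keratin filaments. E-cadherin (CDH1) is typical of epithelia and N-cadherin (CDH2) of mesenchymal and neural cells. ESRP1 and ESRP2 are RNA-binding proteins that direct epithelial splice forms, while factors of the SNAI, ZEB and TWIST families repress epithelial genes during the epithelial-mesenchymal transition (EMT).

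Total counts per sample lay between 32137700 and 44562413. Levels are given as CPM, the count relative to the library total after scaling by the trimmed mean of M-values (TMM). Comparisons between genes use RPKM, which is CPM per kilobase of annotated exons. EZH2 itself was at 158 ± 4.32 CPM (SD, n = 3) in EZH2 WT, then 218 ± 9.61 in EZH2 Y641F, 173 ± 8.57 with EZH2 A677G and 208 ± 2.03 in EZH2 H689A/F667I. These counts pool the endogenous and the introduced transcript and do not read the mutations. The higher EZH2 level was called in EZH2 Y641F (log2 fold change 0.46, edgeR quasi-likelihood test, adjusted p = 1.57e-10) and in EZH2 H689A/F667I (0.40, adjusted p = 1.15e-07). In EZH2 A677G (0.13, adjusted p = 0.0294) the call was lost with other scalings or without single replicates. Of 8 kidney and neurofilament genes usual in HEK293 cells 7 could be tested, and these summed to 422 to 442 CPM in EZH2 WT, then 311 to 347 in EZH2 Y641F, 282 to 304 with EZH2 A677G and 371 to 380 in EZH2 H689A/F667I. The other, PAX2, was at 0 in all replicates of at least 1 line. Most markers of other cells had no row, including 6 of 7 for blood, 4 of 5 for endothelium, 5 of 6 for keratinocytes and 2 of 5 for fibroblasts. The summed fibroblast markers COL1A1, COL3A1 and LUM were at 11.4 to 12.7 CPM in EZH2 WT, then 15.2 to 24.6 in EZH2 Y641F, 13.1 to 14.7 with EZH2 A677G and 12.6 to 16.3 in EZH2 H689A/F667I. Their part in the results was not tested. Replicates of EZH2 Y641F differed more among themselves, with a chi-square per degree of freedom of 10.3 to 14.9, than those of the other lines (3.33 to 7.13).

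PKP3 and SPINT2 were the genes of the group that were higher in each of the mutant lines than in EZH2 WT, while CDH2 was higher in the EZH2 GOF mutants and ESRP2 in EZH2 Y641F. A gene was called where its adjusted p, as given by edgeR's quasi-likelihood test and corrected by Benjamini-Hochberg over all genes, was under 0.05. In EZH2 Y641F, 4 of the 8 genes were called higher (CDH2, ESRP2, PKP3 and SPINT2), where 2.09% of all genes were called higher and 5.59% lower. In EZH2 A677G, 3 were called higher (CDH2, PKP3 and SPINT2), beside 2.07% of all genes higher and 6.48% lower. In EZH2 H689A/F667I, 2 were called higher (PKP3 and SPINT2), beside 0.140% of all genes higher and 0.161% lower. These shares leave out the 175 genes at 0 in every replicate of EZH2 A677G or EZH2 H689A/F667I. With those kept, 139 of 14438 genes were called lower and 30 higher in EZH2 H689A/F667I. In these comparisons 0 of the 8 genes were called lower. At an unadjusted p under 0.05 there were 4, 4 and 4 genes, beside 19.2%, 20.4% and 8.30% of all genes. Samples of the mutant line all lay above EZH2 WT for 4 genes in EZH2 Y641F and 3 with EZH2 A677G, beside 9.28% and 12.5% of all genes. Between EZH2 Y641F and EZH2 A677G 0 of the 8 were called by edgeR's quasi-likelihood test, by its exact test or by DESeq2, beside 0.0841% of all genes called. At an unadjusted p under 0.05 there were also 0, beside 6.91% of all genes. When the mean of both EZH2 GOF mutants was set against EZH2 H689A/F667I, CDH2 was called higher, beside 3.81% of all genes higher and 8.75% lower. It was also the 1 gene of the 8 whose GOF samples all lay above the LOF samples, beside 5.16% of all genes. The median log2 fold change of the 8 genes was 0.28 in EZH2 Y641F, 0.25 with EZH2 A677G and 0.27 in EZH2 H689A/F667I, against 0.003, 0.005 and 0.002 over all genes tested. In bulk RNA, fewer cells that express a gene and less RNA of it per cell cannot be told apart.

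**Figure D1:**
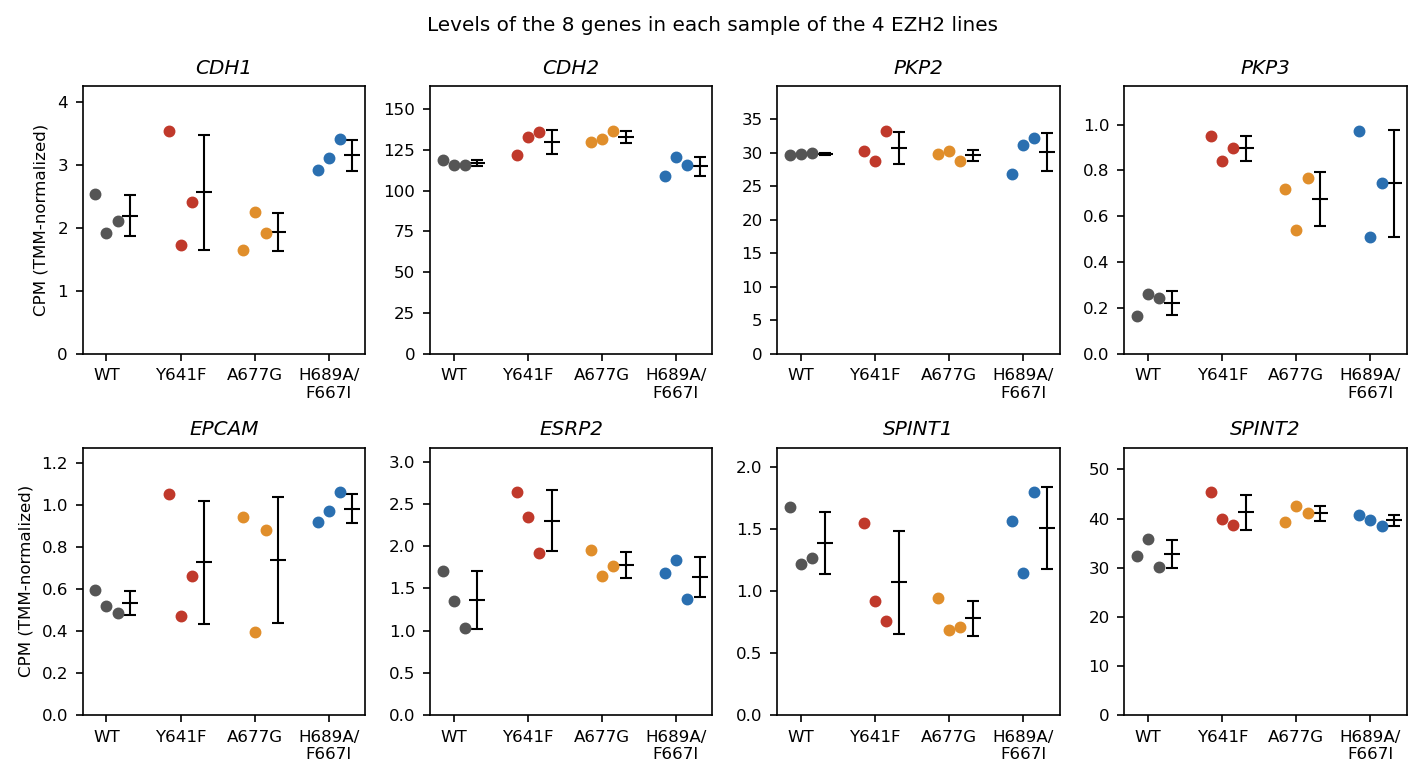
TMM-normalized CPM of the 8 genes in each of the 12 samples, with points for replicates and a bar for the mean and SD (n = 3) of a line, each panel on its own axis from 0. PKP3 lies between 0.162 and 0.259 CPM in EZH2 WT and at 0.509 or above in the other 9 samples, while PKP2 stays between 26.8 and 33.3 CPM.

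Starting with the cadherins, CDH2 was the most abundant transcript of the group per exon length and CDH1 was scarce. CDH2 (ENSG00000170558.10, chromosome 18, 27932879 to 28177946, minus strand, GRCh38) was at 13.9, 13.5 and 13.5 RPKM in EZH2 WT. It was at 14.2, 15.4 and 15.9 RPKM in EZH2 Y641F and at 15.1, 15.3 and 15.9 RPKM with EZH2 A677G. All 6 samples of the EZH2 GOF mutants lay above the 3 EZH2 WT samples. In EZH2 H689A/F667I CDH2 was at 12.7, 14.1 and 13.5 RPKM, which overlapped EZH2 WT. The change was small: the log2 fold change came to 0.15 ± 0.0430 (SE) in EZH2 Y641F (1.11-fold, edgeR adjusted p = 0.0181) and 0.18 ± 0.0430 with EZH2 A677G (1.13-fold, adjusted p = 0.00426). Against EZH2 H689A/F667I, the mean of the EZH2 GOF mutants was 0.19 ± 0.0376 higher (adjusted p = 3.76e-04). In EZH2 Y641F the call was lost without EZH2 WT replicate 2 or 3 or EZH2 Y641F replicate 2 or 3 (adjusted p of 0.0785, 0.0611, 0.0550 and 0.118).

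CDH1 (ENSG00000039068.20, chromosome 16, 68737292 to 68835537, plus strand) had between 66 and 149 counts per sample. It was at 2.54, 1.92 and 2.11 CPM in EZH2 WT, at 3.54, 1.73 and 2.41 CPM in EZH2 Y641F and at 1.64, 2.24 and 1.92 CPM with EZH2 A677G. These ranges overlapped. In EZH2 H689A/F667I the 3 samples, at 2.92, 3.11 and 3.41 CPM, lay above all EZH2 WT samples. The log2 fold change of 0.52 ± 0.216 (95% interval 0.08 to 0.96) did not pass the adjustment over all genes (edgeR adjusted p = 0.473). Ordered by mean level, EZH2 A677G came first, followed by EZH2 WT, EZH2 Y641F and EZH2 H689A/F667I, and each neighbouring pair in this order overlapped. The mean of the EZH2 GOF mutants minus EZH2 H689A/F667I was -0.50 ± 0.182 (adjusted p = 0.0698), and without EZH2 Y641F replicate 1 it was -0.65 (adjusted p = 0.00719). That replicate had the highest CDH1 level of all samples.

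Per exon length, CDH2 exceeded CDH1 in every sample. The log2 RPKM of CDH1 minus that of CDH2 was -5.25 ± 0.19 (SD, n = 3) in EZH2 WT, then -5.23 ± 0.58 in EZH2 Y641F, -5.61 ± 0.22 with EZH2 A677G and -4.70 ± 0.10 in EZH2 H689A/F667I. In linear terms CDH2 was 38.1 times the level of CDH1 in EZH2 WT and 26.0 times in EZH2 H689A/F667I. With the length of the longest transcript in place of all exons, the mean differences lay between -6.37 and -5.46, in the same order of lines. A lncRNA on the opposite strand overlaps 5.71% of the exon bases of CDH1 and another 3.58% of those of CDH2. Libraries were made with a stranded kit, but the strand setting of the counting is not given in the sources used here.

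The plakophilins differed from each other. Plakophilin 3 (PKP3, ENSG00000184363.10, chromosome 11, 392614 to 404908, plus strand) is a desmosomal plaque protein of stratified and simple epithelia. Its counts were 6, 10 and 8 in EZH2 WT, then 40, 32 and 38 in EZH2 Y641F, 32, 22 and 28 with EZH2 A677G and 36, 20 and 24 in EZH2 H689A/F667I. Every mutant sample had at least 20 counts and no EZH2 WT sample had more than 10. As CPM, the means were 0.221 ± 0.0514, 0.897 ± 0.0553, 0.675 ± 0.119 and 0.743 ± 0.232 (SD, n = 3 each). This was the largest fold change of the 8 genes, at one of their lowest levels. The log2 fold change came to 2.01 ± 0.391 in EZH2 Y641F (4.02-fold, 95% interval 2.32 to 6.97, edgeR adjusted p = 5.32e-04). It was 1.60 ± 0.406 with EZH2 A677G (3.03-fold, adjusted p = 0.00778) and 1.73 ± 0.406 in EZH2 H689A/F667I (3.32-fold, adjusted p = 0.0458). PKP3 thus rose in each of the 3 mutant lines, and the mean of the EZH2 GOF mutants did not pass the test against EZH2 H689A/F667I (0.07, 95% interval -0.51 to 0.65, adjusted p = 0.921).

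In CPM the 3 EZH2 Y641F samples lay above the 3 EZH2 A677G samples in PKP3, a pattern that 5.33% of all genes showed. By counts the lowest EZH2 Y641F sample and the highest EZH2 A677G sample were equal, at 32. The difference of 0.41 ± 0.321 was not called (edgeR adjusted p = 0.874). All 12 PKP3 counts were even numbers, as were those of EPCAM and of 169 of the 14438 genes. Of counts of genes with a mean under 30, 65.2% were even, against 50.4% for genes with a mean of at least 1000. How reads of a pair were counted is not given in the sources used here, and its part in these low counts was not tested. With all counts halved, an alternative chosen after the counts were seen, PKP3 was still called in EZH2 Y641F and EZH2 A677G but not in EZH2 H689A/F667I (adjusted p = 0.0828). There it was also lost with library totals (0.0649) and without EZH2 WT replicate 1, 2 or 3, EZH2 A677G replicate 1 or 3 or EZH2 H689A/F667I replicate 1 or 3 (adjusted p of 0.378, 0.145, 0.132, 0.0646, 0.0608, 0.433 and 0.115). In EZH2 A677G the call was lost without EZH2 WT replicate 1 (adjusted p = 0.0614).

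Plakophilin 2 (PKP2, ENSG00000057294.18, chromosome 12, 32790745 to 32896798, minus strand), the plakophilin of heart and simple epithelia, moved least of the group. It was at 29.8 ± 0.140 CPM in EZH2 WT, then 30.7 ± 2.33 in EZH2 Y641F, 29.6 ± 0.822 with EZH2 A677G and 30.1 ± 2.87 in EZH2 H689A/F667I. All 4 ranges overlapped. The 95% intervals of its log2 fold change against EZH2 WT were -0.09 to 0.18, -0.14 to 0.13 and -0.12 to 0.15, so changes beyond these bounds were not seen at 991 to 1408 counts per sample. PKP2 exceeded PKP3 per exon length by 5.67 ± 0.36 log2 RPKM in EZH2 WT, then 3.66 ± 0.11 in EZH2 Y641F, 4.03 ± 0.30 with EZH2 A677G and 3.95 ± 0.58 in EZH2 H689A/F667I. The gap was 5.41 or more in the EZH2 WT samples and 4.50 or less in the other 9. A lncRNA on the same strand overlaps 4.12% of the exon bases of PKP2.

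EPCAM (ENSG00000119888.11, chromosome 2, 47345158 to 47387601, plus strand), a surface glycoprotein of most simple epithelia, was near the lower limit of what these libraries resolve. Its counts were 22, 20 and 16 in EZH2 WT, then 44, 18 and 28 in EZH2 Y641F, 42, 16 and 32 with EZH2 A677G and 34, 38 and 34 in EZH2 H689A/F667I. The LOF samples were close together and above EZH2 WT, whereas EZH2 Y641F and EZH2 A677G each held 2 samples above all EZH2 WT samples. In CPM the other sample of each line lay below EZH2 WT, at 0.473 and 0.393 against a lowest EZH2 WT value of 0.483. By counts these samples did not lie below it. The mean levels were 0.532 ± 0.0577 CPM in EZH2 WT, then 0.727 ± 0.292 in EZH2 Y641F, 0.738 ± 0.300 with EZH2 A677G and 0.981 ± 0.0685 in EZH2 H689A/F667I. The log2 fold change of 0.87 ± 0.358 in EZH2 H689A/F667I (95% interval 0.15 to 1.60) was not called (edgeR adjusted p = 0.461), nor were 0.45 ± 0.365 in EZH2 Y641F (adjusted p = 0.554) and 0.47 ± 0.365 with EZH2 A677G (adjusted p = 0.530). CDH1 and EPCAM were, with PKP3 and SPINT2, the 4 of 8 genes whose LOF samples all lay above EZH2 WT, beside 7.89% of all genes.

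ESRP2 (ENSG00000103067.14, chromosome 16, 68229033 to 68238102, minus strand) was the epithelial splicing regulator that could be measured. It was at 1.70, 1.35 and 1.03 CPM in EZH2 WT and at 2.64, 2.34 and 1.92 CPM in EZH2 Y641F, with no overlap. In EZH2 A677G it was at 1.95, 1.65 and 1.76 CPM and in EZH2 H689A/F667I at 1.68, 1.83 and 1.37 CPM, which both overlapped EZH2 WT. The rise in EZH2 Y641F was 0.75 ± 0.231 on the log2 scale (1.68-fold, 95% interval 1.21 to 2.33, edgeR adjusted p = 0.0374). The values of 0.39 ± 0.236 with EZH2 A677G (adjusted p = 0.381) and 0.26 ± 0.241 in EZH2 H689A/F667I (adjusted p = 0.835) were not called. EZH2 Y641F minus EZH2 A677G was 0.36 (95% interval -0.09 to 0.81, adjusted p = 0.799), so a difference between the EZH2 GOF mutants was not shown. The call in EZH2 Y641F was lost when the fit held the compared lines alone (adjusted p = 0.0671) and without EZH2 WT replicate 2 or 3 or EZH2 Y641F replicate 1 or 2 (adjusted p of 0.116, 0.178, 0.128 and 0.0745). Exons of NFATC3, on the opposite strand, overlap 4.37% of the exon bases of ESRP2. On the same strand, a lncRNA overlaps 2.18% of them and MIR6773 overlaps 1.43%.

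**Figure D2:**
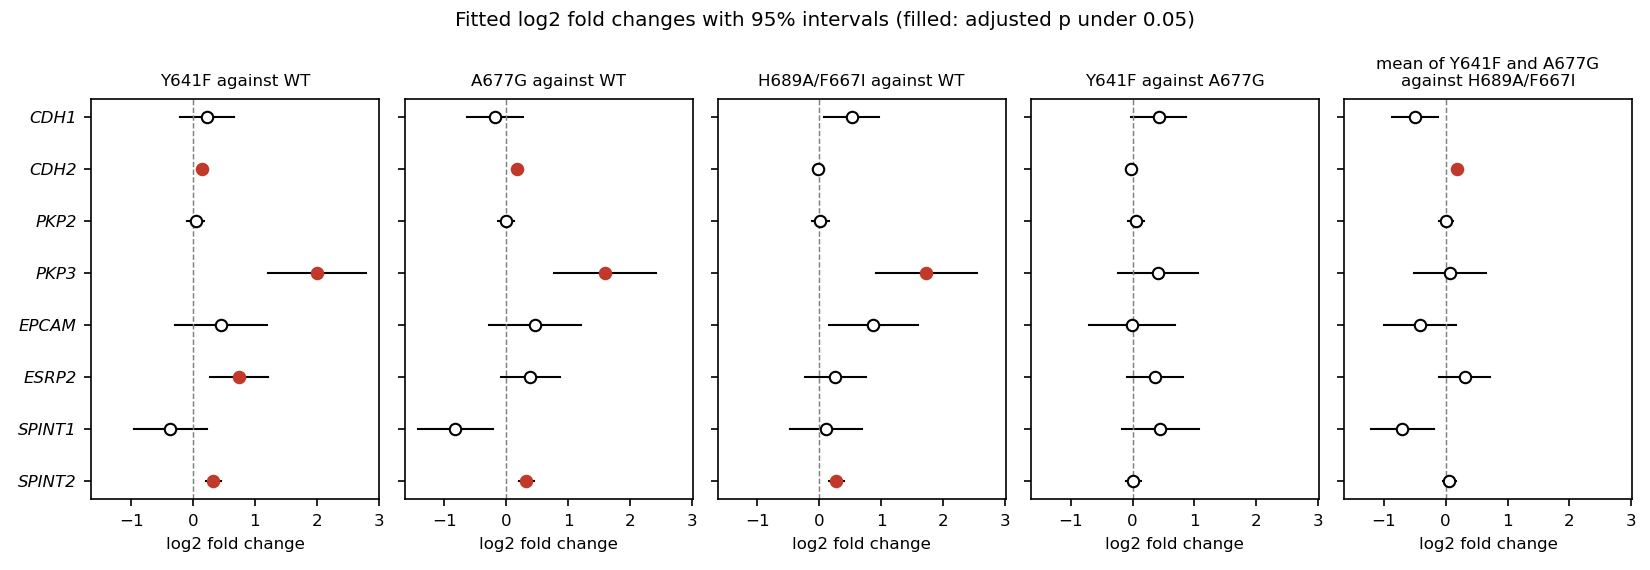
Log2 fold changes of the 8 genes fitted by edgeR in the 5 comparisons, with lines for 95% intervals and filled points where the adjusted p was under 0.05. PKP3 and SPINT2 are filled in each comparison of a mutant with EZH2 WT, and the intervals of CDH2, PKP2 and SPINT2 are the narrowest.

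SPINT1 and SPINT2 encode membrane-bound Kunitz-type inhibitors (HAI-1 and HAI-2) of epithelial serine proteases such as matriptase and of hepatocyte growth factor activator. SPINT2 (ENSG00000167642.13, chromosome 19, 38244035 to 38292615, plus strand) was at 32.3, 35.9 and 30.2 CPM in EZH2 WT. It was at 45.4, 39.9 and 38.7 CPM in EZH2 Y641F, 39.4, 42.5 and 41.2 CPM with EZH2 A677G and 40.7, 39.7 and 38.5 CPM in EZH2 H689A/F667I. All 9 mutant samples lay above the 3 EZH2 WT samples. SPINT2 rose by 0.33 ± 0.0624 on the log2 scale in EZH2 Y641F (1.26-fold, edgeR adjusted p = 3.27e-04) and by 0.32 ± 0.0625 with EZH2 A677G (1.25-fold, adjusted p = 4.14e-04). The rise in EZH2 H689A/F667I was 0.27 ± 0.0631 (1.21-fold, adjusted p = 0.0434). The mean of the EZH2 GOF mutants minus EZH2 H689A/F667I was 0.05 (95% interval -0.05 to 0.16, adjusted p = 0.598). The LOF call was lost with library totals (adjusted p = 0.0849), with halved counts (0.0506) and without EZH2 WT replicate 1 or 3, EZH2 A677G replicate 1 or 3 or EZH2 H689A/F667I replicate 1, 2 or 3 (adjusted p of 0.275, 0.287, 0.0584, 0.0613, 0.321, 0.200 and 0.0773). A lncRNA on the opposite strand overlaps 12.23% of the exon bases of SPINT2. On the same strand, the protein-coding gene ENSG00000267748, which had no row, overlaps 4.76% of them.

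SPINT1 (ENSG00000166145.15, chromosome 15, 40844018 to 40858207, plus strand) pointed the other way in the EZH2 GOF mutants, without being called. It was at 1.68, 1.22 and 1.27 CPM in EZH2 WT and at 0.942, 0.688 and 0.713 CPM with EZH2 A677G, with no overlap, a pattern in the lower direction that 14.7% of all genes showed. In EZH2 Y641F it was at 1.55, 0.919 and 0.757 CPM and in EZH2 H689A/F667I at 1.57, 1.15 and 1.80 CPM. The log2 fold change with EZH2 A677G was -0.82 ± 0.302 (95% interval -1.43 to -0.21, edgeR adjusted p = 0.0905), and edgeR's exact test gave an adjusted p of 0.0398. It was -0.37 ± 0.291 in EZH2 Y641F (adjusted p = 0.546) and 0.11 ± 0.285 in EZH2 H689A/F667I (adjusted p = 0.952). The mean of the EZH2 GOF mutants minus EZH2 H689A/F667I was -0.70 ± 0.251 (adjusted p = 0.0605). It passed the threshold with at least 10 counts required in every sample (adjusted p = 0.0485), with the GC trend removed (0.0497) and without EZH2 Y641F replicate 1 (0.0116) or EZH2 H689A/F667I replicate 2 (0.0455). Per exon length, SPINT1 minus SPINT2 was -4.05 ± 0.31 log2 RPKM in EZH2 WT, then -4.81 ± 0.41 in EZH2 Y641F, -5.21 ± 0.30 with EZH2 A677G and -4.22 ± 0.35 in EZH2 H689A/F667I. The EZH2 A677G samples, at -4.87 or below, lay under every EZH2 WT sample, at -4.36 or above.

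**Figure D3:**
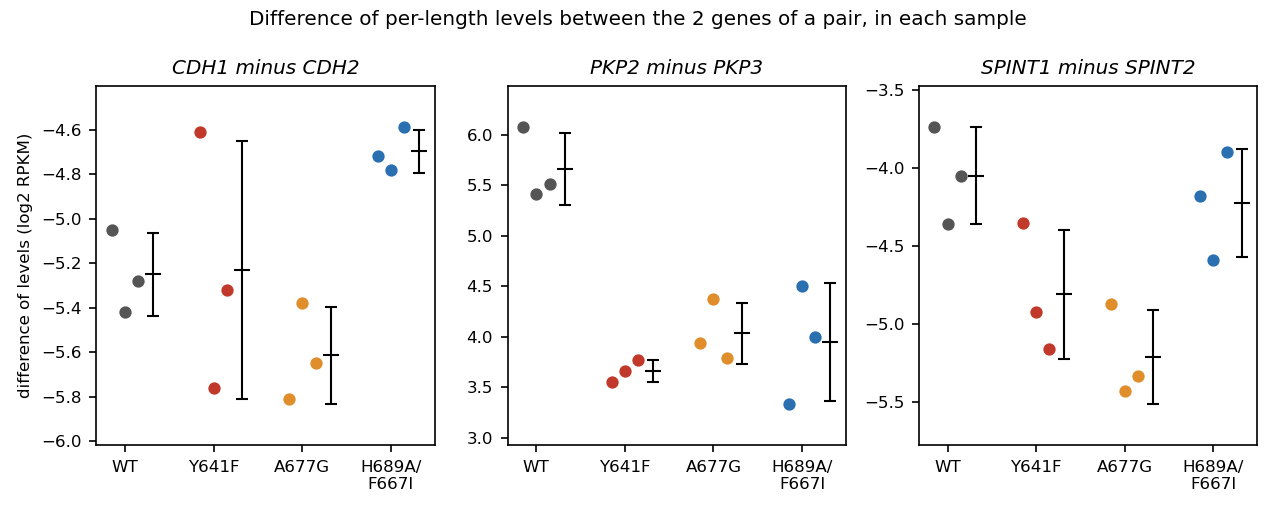
Difference in log2 RPKM between the 2 genes of a pair in each sample, with points for replicates and a bar for the mean and SD (n = 3) of a line. The gap between PKP2 and PKP3 is 5.41 or more in EZH2 WT and 4.50 or less elsewhere, and CDH1 minus CDH2 has its highest mean in EZH2 H689A/F667I, at -4.78 to -4.59, a range that also holds 1 EZH2 Y641F sample at -4.61.

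Promoter sequence was at hand for CDH2, called in the EZH2 GOF mutants, and SPINT1, the gene with the lowest log2 fold change of the group. PRC2 is known to gather at stretches rich in CG dinucleotides, so the bases before the first RefSeq start (GRCh38.p14) are printed 5′ to 3′ with each CG in capitals. For CDH2 these are the 250 bases of chr18:28177131-28177380 on the minus strand, which lie in no annotated exon of CDH2. They lie inside the annotated span of the gene, whose 5′ end is further upstream at 28177946. For SPINT1 they are the 220 bases of chr15:40843798-40844017 on the plus strand, which end before the first annotated exon.
CDH2: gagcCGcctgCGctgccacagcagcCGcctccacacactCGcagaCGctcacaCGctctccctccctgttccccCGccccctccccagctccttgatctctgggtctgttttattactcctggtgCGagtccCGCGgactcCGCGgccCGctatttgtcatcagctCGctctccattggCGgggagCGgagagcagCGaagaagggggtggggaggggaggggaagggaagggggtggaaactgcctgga
SPINT1: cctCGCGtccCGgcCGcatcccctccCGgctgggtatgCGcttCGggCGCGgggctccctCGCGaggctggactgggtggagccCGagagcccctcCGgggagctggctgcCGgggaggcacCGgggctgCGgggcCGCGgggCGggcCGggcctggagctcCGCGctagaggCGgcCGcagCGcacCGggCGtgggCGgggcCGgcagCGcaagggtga
The stretch of CDH2 holds 17 CG and that of SPINT1 30. In the window of 300 bases around the start, from 250 before to 50 after, CDH2 had 23 CG and SPINT1 had 38. Of 35116 promoters of the same length, 35.8% had at least as many CG as CDH2 and 9.91% at least as many as SPINT1. The E-box CAGGTG, read on both strands (its other strand is CACCTG) and bound by SNAI and ZEB factors, was found 0 times in either window, while 20.6% of all promoters held it. Each gene also has a second RefSeq start further along the gene. The window of CDH2 there held 4 CG, a number that 75.5% of promoters reach, and 0 E-boxes, and that of SPINT1 held 25 CG and 1 E-box.

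For the 3 genes with the largest fold changes, the genes whose log2 CPM followed theirs most closely over the 12 samples were searched among 12036 genes whose mean log2 CPM reached 1. PKP3 was followed most closely by STAU2 (Pearson r = 0.92), ADAM10 (0.92) and ADD3 (0.91). STAU2 was at 48.0 CPM in EZH2 WT and 56.1, 52.6 and 53.0 CPM in EZH2 Y641F, then EZH2 A677G and finally EZH2 H689A/F667I. For EPCAM they were PAK1 (0.84), LITAF (0.83) and ATP9B (0.83). For SPINT1 they were GAB2 (0.96), SLC39A8 (0.94) and THSD1 (0.94), and GAB2 was at 4.85, 4.11, 3.68 and 4.90 CPM in EZH2 WT, EZH2 Y641F, then EZH2 A677G and finally EZH2 H689A/F667I. These values describe 12 samples that share libraries and line differences, and the best of many genes is high by selection.

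The wider junction, splicing and EMT genes were more often called lower than higher in the EZH2 GOF mutants, as were the genes of the whole table. Of 130 genes tested from 10 lists, 26 were called in EZH2 Y641F, beside 7.68% of all genes. With EZH2 A677G 25 were called, beside 8.55% of all genes, and in EZH2 H689A/F667I 1 was, beside 0.301%. Between the mean of the EZH2 GOF mutants and EZH2 H689A/F667I 27 were called, beside 12.6% of all genes. Counts within a list are to be read against the 5.59% of all genes lower and 2.09% higher in EZH2 Y641F, and the 6.48% lower and 2.07% higher with EZH2 A677G. These lists were drawn up with earlier results known and leave out the 8 genes above. Counts without single samples fell to 17 in EZH2 Y641F without EZH2 WT replicate 2 or EZH2 Y641F replicate 3. In EZH2 A677G they fell to 14 or 15 without EZH2 WT replicate 1 or 2 and to 16, 12 and 16 without EZH2 A677G replicate 1, 2 or 3.

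Among 18 tested cadherins, catenins and nectins, 3 were lower in EZH2 Y641F (CDH7, CTNNA3 and PVRL1, now NECTIN1) and 1 higher (MLLT4, now AFDN), with a list median of -0.01. In EZH2 A677G the same symbols were lower and CDH4, CTNNA1 and MLLT4 higher, with a median of -0.02. In EZH2 H689A/F667I 0 of the tested genes were called in either direction by edgeR. CDH3 and CDH15 had a row but were not tested, being at 0 in every replicate of EZH2 A677G or EZH2 H689A/F667I. CDH7, a type II cadherin, was at 3.36 ± 0.328 CPM (SD, n = 3) in EZH2 WT and 1.75 ± 0.787, 1.68 ± 0.251 and 2.89 ± 0.431 CPM in EZH2 Y641F, then EZH2 A677G and finally EZH2 H689A/F667I. It fell by 0.94 on the log2 scale in EZH2 Y641F (edgeR adjusted p = 0.00523) and by 1.00 with EZH2 A677G (adjusted p = 0.00248). CTNNA3, at 7 to 40 counts per sample, changed by -1.35 in EZH2 Y641F (edgeR adjusted p = 0.0467) and -1.51 with EZH2 A677G (0.0233). Its call in EZH2 Y641F was lost with DESeq2 (adjusted p = 0.0722), with library totals (0.0565) and in 8 of 12 fits without 1 replicate. With EZH2 A677G it was lost in 3 of these 12 fits. Without EZH2 Y641F replicate 2 the 3 lower genes in that line came to 0 (CDH7 adjusted p = 0.0507), and the higher count came to 0 without EZH2 WT replicate 1 or 2, EZH2 Y641F replicate 3, EZH2 A677G replicate 1 or 2 or EZH2 H689A/F667I replicate 2. With EZH2 A677G the lower genes came to 1 without its replicate 3, and the higher ones to 1, 1 and 0 without EZH2 WT replicate 1 or 2 or EZH2 A677G replicate 2. Alpha-E-catenin (CTNNA1), which ties the cadherin complex to actin, rose by 0.15 ± 0.0364 with EZH2 A677G (adjusted p = 0.00427, and 0.0688 without EZH2 A677G replicate 2). It was 0.10 ± 0.0365 above EZH2 WT in EZH2 Y641F (adjusted p = 0.102).

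In the desmosome list, 8 genes could be tested and the 2 called ones were the desmocollins DSC2 and DSC3, lower in EZH2 Y641F and with EZH2 A677G. DSC3, a desmosomal cadherin, was at 108 ± 3.39 CPM in EZH2 WT, then 88.0 ± 5.22 in EZH2 Y641F, 86.7 ± 1.89 with EZH2 A677G and 103 ± 0.803 in EZH2 H689A/F667I. It changed by -0.30 ± 0.0429 in EZH2 Y641F (edgeR adjusted p = 4.98e-06) and -0.32 ± 0.0430 with EZH2 A677G (adjusted p = 1.29e-06). DSC2 changed by -0.24 ± 0.0557 and -0.21 ± 0.0556 (adjusted p = 0.00328 and 0.0104). The DSC2 call with EZH2 A677G was lost without EZH2 WT replicate 2 or EZH2 A677G replicate 1 or 2 (adjusted p of 0.0882, 0.0801 and 0.0614). In EZH2 H689A/F667I DSC3 was at -0.08 (adjusted p = 0.656) and DSC2 at -0.05 (adjusted p = 0.869). In the tight junction list, LSR, a protein of tricellular junctions, was lower with EZH2 A677G (-0.30 ± 0.0981, edgeR adjusted p = 0.0464), and the value in EZH2 Y641F was -0.25 ± 0.0978 (adjusted p = 0.116). The LSR call was lost with library totals, halved counts or the GC trend removed, and without EZH2 WT replicate 1 or 3, EZH2 A677G replicate 2 or 3 or any EZH2 H689A/F667I replicate (adjusted p of 0.0511 to 0.223). Claudins CLDN3 and CLDN4, the polarity gene CRB3 and the desmogleins DSG1 and DSG3 had no row. CLDN7 had a row but was not tested, being at 0 in every replicate of EZH2 A677G or EZH2 H689A/F667I.

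Most proteases that HAI-1 and HAI-2 inhibit had no row, including ST14 (matriptase), PRSS8 and HPN, as did HGF and HGFAC. Of 20 listed partners, targets and related genes 5 could be tested, and CLDN7 was left out for its values of 0. MET, the receptor of hepatocyte growth factor, changed by -0.15 ± 0.0409 in EZH2 Y641F (edgeR adjusted p = 0.0171), by -0.18 ± 0.0410 with EZH2 A677G (adjusted p = 0.00224) and by -0.04 ± 0.0410 in EZH2 H689A/F667I (adjusted p = 0.862). TFPI2, another Kunitz-type inhibitor, was lower with EZH2 A677G (-0.90 ± 0.290, adjusted p = 0.0462) and not called in EZH2 Y641F (-0.62 ± 0.283, adjusted p = 0.217). The MET call in EZH2 Y641F was lost with the compared lines alone and without EZH2 WT replicate 2 or 3 or EZH2 Y641F replicate 2 (adjusted p of 0.0556 to 0.0759). That of TFPI2 was lost without any 1 replicate of EZH2 WT or EZH2 A677G, or EZH2 H689A/F667I replicate 1 or 2 (adjusted p of up to 0.156).

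Of 18 tested splicing regulators, 4 were lower (RBFOX3, MBNL3, CELF2 and RBM24) and 1 higher (PTBP2) in EZH2 Y641F, 3 were lower (MBNL3, CELF2 and RBM24) with EZH2 A677G and 0 were called in EZH2 H689A/F667I. MBNL3, of the muscleblind family, was at 73.4 ± 1.91 CPM in EZH2 WT and 49.9 ± 2.54, 49.9 ± 3.15 and 69.2 ± 1.77 CPM in EZH2 Y641F, then EZH2 A677G and finally EZH2 H689A/F667I. Its log2 fold change came to -0.56 ± 0.0498 in EZH2 Y641F (edgeR adjusted p = 3.33e-10) and -0.55 ± 0.0498 with EZH2 A677G (adjusted p = 3.14e-10). PTBP2, the neural polypyrimidine tract binding protein, rose by 0.29 ± 0.0528 in EZH2 Y641F (adjusted p = 2.03e-04). RBM24, a muscle splicing factor, fell by 0.87 in EZH2 Y641F and by 1.10 with EZH2 A677G on the log2 scale (adjusted p = 0.0474 and 0.00941). The count of lower regulators in EZH2 Y641F came to 2 with library totals, with the compared lines alone and without EZH2 WT replicate 2, EZH2 Y641F replicate 2 or 3, EZH2 A677G replicate 3 or EZH2 H689A/F667I replicate 2. With EZH2 A677G it came to 1 without its replicate 1. RBM24 in EZH2 Y641F kept its call in 4 of the 12 fits without 1 replicate.

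Of 18 tested transcripts known to be spliced by ESRP proteins, 1 was lower (CD44) and 1 higher (EPB41L5) in EZH2 Y641F. Beside these stand 5.59% of all genes lower and 2.09% higher. With EZH2 A677G 1 was higher (EPB41L5), beside 2.07% of all genes. In EZH2 H689A/F667I 0 were called in either direction, beside 0.301% of all genes. Splice forms cannot be read from counts per gene. CD44, the hyaluronan receptor, was at 0.690 ± 0.181 CPM in EZH2 WT, then 0.176 ± 0.178 in EZH2 Y641F, 0.383 ± 0.0989 with EZH2 A677G and 1.19 ± 0.446 in EZH2 H689A/F667I. Its log2 fold change came to -1.94 ± 0.487 in EZH2 Y641F (edgeR adjusted p = 0.00818), at 2 to 16 counts per sample in that line. EPB41L5, a FERM domain protein that acts in EMT, rose by 0.22 ± 0.0686 in EZH2 Y641F and by 0.23 ± 0.0686 with EZH2 A677G (adjusted p = 0.0397 and 0.0257). The EPB41L5 call in EZH2 Y641F was lost with upper-quartile factors, with the compared lines alone and without EZH2 WT replicate 1, 2 or 3 or EZH2 Y641F replicate 3 (adjusted p of 0.0510 to 0.361). With EZH2 A677G it was lost without EZH2 WT replicate 1 or 2 or EZH2 A677G replicate 2 or 3 (adjusted p of 0.0774 to 0.163). The CD44 call was lost without EZH2 Y641F replicate 2 (adjusted p = 0.0574) or 3 (0.0597).

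Several EMT factors were lower in the EZH2 GOF mutants. Of 11 tested, 5 were lower in EZH2 Y641F (SNAI2, ZEB2, TWIST1, TWIST2 and PRRX1) and 4 with EZH2 A677G (SNAI2, ZEB2, TWIST2 and PRRX1), with medians of -0.12 and -0.10, and 0 were called in EZH2 H689A/F667I (median -0.08). PRRX1, a mesenchymal homeobox factor, was at 2.32 ± 0.509 CPM in EZH2 WT, then 1.05 ± 0.226 in EZH2 Y641F, 0.633 ± 0.141 with EZH2 A677G and 2.58 ± 0.162 in EZH2 H689A/F667I. It changed by -1.14 ± 0.245 in EZH2 Y641F (edgeR adjusted p = 0.00175) and -1.88 ± 0.264 with EZH2 A677G (adjusted p = 3.53e-06). TWIST2 was at 7.18 ± 0.801, 4.73 ± 0.719, 4.81 ± 0.438 and 6.67 ± 0.670 CPM in the same order of lines. SNAI2, a repressor of E-cadherin, changed by -0.28 ± 0.0758 and -0.24 ± 0.0757 (adjusted p = 0.0148 and 0.0360), and ZEB2 by -0.25 ± 0.0649 and -0.22 ± 0.0649 (adjusted p = 0.0123 and 0.0226). Without EZH2 WT replicate 2 or EZH2 Y641F replicate 2 or 3 the count in EZH2 Y641F came to 3, and without EZH2 WT replicate 1 or 2 or EZH2 A677G replicate 2 or 3 that with EZH2 A677G came to 2. The calls lost included SNAI2 and ZEB2 (adjusted p of up to 0.175), also without EZH2 WT replicate 3 (SNAI2) and EZH2 A677G replicate 1 (ZEB2). CDH1 was not called in either line.

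**Figure D4:**
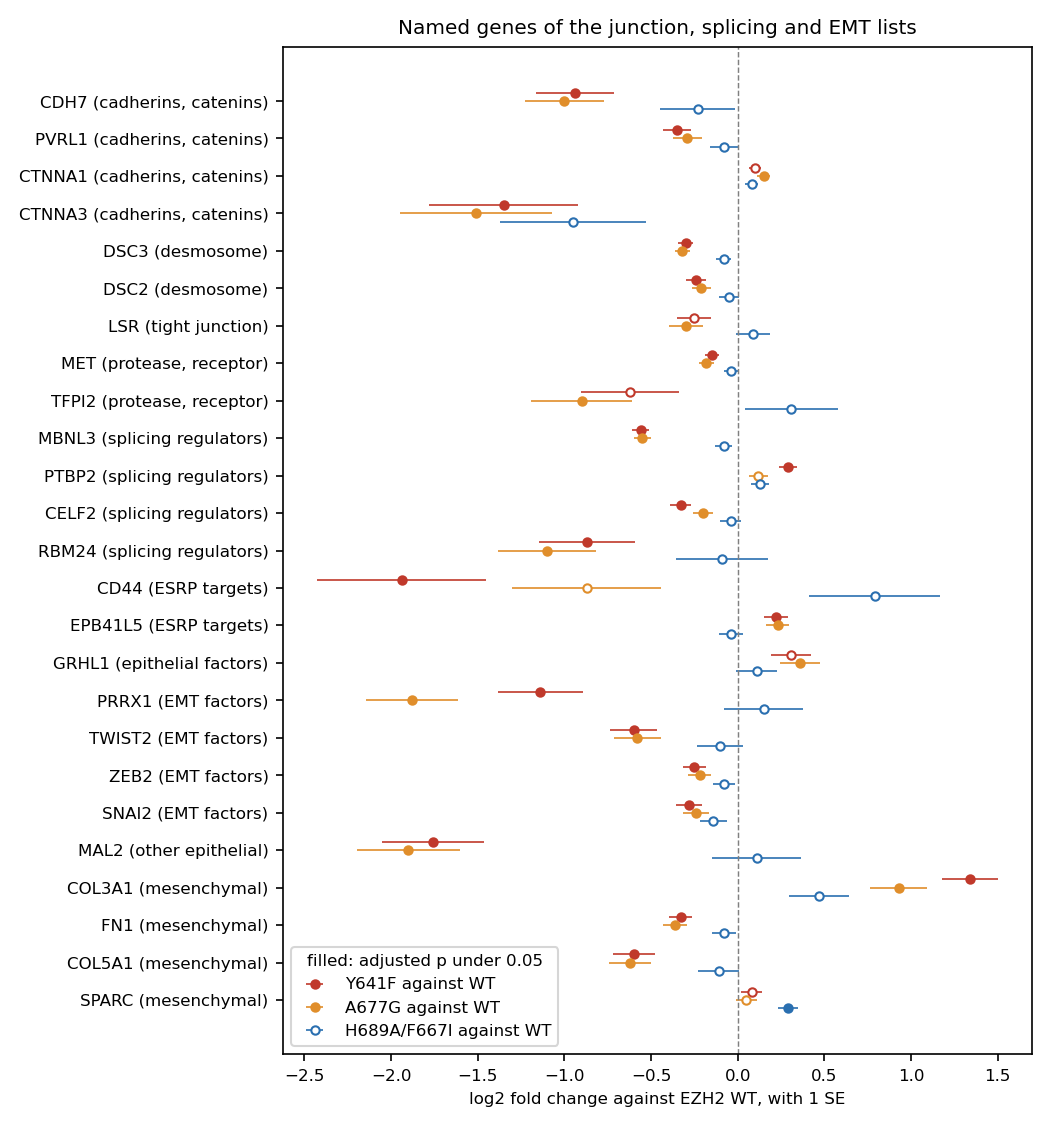
Log2 fold changes against EZH2 WT of named genes from the wider lists, with 1 SE, in EZH2 Y641F, then EZH2 A677G and finally EZH2 H689A/F667I, filled where the adjusted p was under 0.05. PRRX1, MAL2, CTNNA3 and CDH7 lie at -0.94 or below in both EZH2 GOF mutants, COL3A1 lies at 0.93 or above in them, and SPARC is the filled point of EZH2 H689A/F667I.

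Many listed epithelial genes beyond the 8 had no row. How the rows of the count table were chosen is not given in the sources used here. Of 18 epithelial transcription factors 8 could be tested, and GRHL1, a grainyhead factor, was higher with EZH2 A677G (0.36 ± 0.115, edgeR adjusted p = 0.0444). This call was lost with upper-quartile factors, library totals, halved counts or a minimum of 10 counts, and without any 1 replicate of EZH2 WT or EZH2 A677G or EZH2 H689A/F667I replicate 1 (adjusted p of 0.0512 to 0.178). GRHL2, OVOL1, OVOL2, ELF3 and EHF had no row. Of 21 other epithelial genes 11 could be tested, while KRT7, KRT19, MUC1 and RAB25 had no row. The tested ones summed to 112 to 115 CPM in EZH2 WT, then 111 to 123 in EZH2 Y641F, 104 to 115 with EZH2 A677G and 117 to 123 in EZH2 H689A/F667I. MAL2, a protein of apical transport, was the called gene, at 2.18 ± 0.727 CPM in EZH2 WT and 0.644 ± 0.185, 0.584 ± 0.159 and 2.34 ± 0.418 CPM in EZH2 Y641F, then EZH2 A677G and finally EZH2 H689A/F667I. Its log2 fold change came to -1.76 ± 0.294 in EZH2 Y641F (adjusted p = 6.25e-05) and -1.90 ± 0.299 with EZH2 A677G (adjusted p = 2.25e-05).

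Of 14 tested mesenchymal genes, 3 were lower (VIM, FN1 and COL5A1) and 2 higher (COL3A1 and LUM) in EZH2 Y641F, 2 were lower (FN1 and COL5A1) and 1 higher (COL3A1) with EZH2 A677G, and SPARC was higher in EZH2 H689A/F667I. FN1, which encodes fibronectin, changed by -0.33 ± 0.0686 in EZH2 Y641F and -0.36 ± 0.0687 with EZH2 A677G (edgeR adjusted p = 0.00120 and 3.10e-04). COL3A1, a fibrillar collagen, was at 3.52 ± 0.842 CPM in EZH2 WT, then 8.84 ± 2.39 in EZH2 Y641F, 6.64 ± 0.410 with EZH2 A677G and 4.87 ± 0.627 in EZH2 H689A/F667I. It rose by 1.34 ± 0.162 in EZH2 Y641F (adjusted p = 2.55e-07) and by 0.93 ± 0.165 with EZH2 A677G (adjusted p = 1.48e-04). The 2 higher genes in EZH2 Y641F came to 1 without EZH2 WT replicate 1 or 3 or EZH2 Y641F replicate 1 or 3, and the 1 with EZH2 A677G came to 2 without EZH2 Y641F replicate 1 or 3. SPARC, a collagen-binding matrix protein, rose by 0.29 ± 0.0585 in EZH2 H689A/F667I (adjusted p = 0.0148), a call lost without EZH2 WT replicate 1 or 3 or EZH2 H689A/F667I replicate 1 or 2, which left 0 called genes of these lists in EZH2 H689A/F667I. Collagens and other matrix genes thus moved in both directions.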

How the data were processed

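RNA-Seq of 12 HEK293T samples was used, grouped by the genotype in the labels, with 3 replicates per line. Raw counts, whole numbers with no normalization, were deposited by the authors for each gene symbol. Per the labels and the methods of the study, reads were trimmed with Trim Galore 0.6.5, aligned to GRCh38 with STAR 2.7.9a and quantified with Salmon 1.2.0 on a GENCODE transcriptome, and edgeR 3.16 was used for testing. How estimates became counts per symbol is not given in the sources used here. Total counts were 32137700 to 44562413.

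From 14438 genes, 175 were left out because every replicate of EZH2 A677G, or every one of EZH2 H689A/F667I, was at 0. The other 14263 all passed filterByExpr. The fit was made with edgeR 4.0.16 under R 4.3.3 (TMM, quasi-likelihood test on all 12 samples, 1 coefficient per line, no replicate block), in place of the exact test that the study names. P-values were adjusted by Benjamini-Hochberg over all genes tested, at a threshold of 0.05. A standard error is the log2 fold change divided by the root of the F statistic. The common biological coefficient of variation was 0.0471. Symbols were matched to GENCODE on GRCh38 by name (13272) or synonym (809), with 357 unmatched. The procedure was tested on simulated counts.

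The 8 genes and the wider lists were chosen with earlier results of these data known. Named from the lists are at most 4 called genes each, those of lowest p against EZH2 WT, and other called genes are given by name alone. The result of 1 listed gene is not reported here. Alternatives were edgeR's exact test, DESeq2 1.42.0, upper-quartile factors, library totals, no filter, a minimum of 10 counts per gene and sample, the compared lines alone, a replicate block, the GC trend removed (alone and with the block), genes at 0 kept, a minimum size of 1 for the log2 fold change, each replicate left out and, added later, halved counts.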

Additional observations from a re-analysis of the deposited data

Results flagged for a closer look

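Effects against EZH2 WT differed between the EZH2 GOF mutants and EZH2 H689A/F667I, where the difference itself was tested (edgeR's quasi-likelihood test, GOF mean against LOF), for CDH2 and for 19 named genes of the wider lists. Over all genes, 12.6% were called in this comparison. The named genes had been picked as called against EZH2 WT, using the same mutant samples. Their calls here are therefore not independent of that choice. CDH2 differed by 0.19 on the log2 scale (adjusted p = 3.76e-04), higher in the EZH2 GOF mutants. Higher there as well were EPB41L5 by 0.26 (adjusted p = 0.00196) and COL3A1 by 0.66 (adjusted p = 8.65e-04).

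The remaining genes were lower in the EZH2 GOF mutants than in EZH2 H689A/F667I. Among junction genes, the log2 difference was -0.74 for CDH7, -0.24 for PVRL1, -0.23 for DSC3, -0.18 for DSC2 and -0.36 for LSR. It was -0.13 for MET and -1.07 for TFPI2. Among splicing regulators and ESRP target transcripts it was -0.47 for MBNL3, -0.23 for CELF2, -0.90 for RBM24 and -2.19 for CD44. Among EMT factors it was -1.66 for PRRX1 and -0.49 for TWIST2. It was -1.94 for MAL2, -0.27 for FN1, -0.50 for COL5A1 and -0.22 for SPARC. Adjusted p in this comparison was between 2.39e-10 (MBNL3) and 0.0173 (PVRL1). Without single replicates, the calls of CDH7, PVRL1, DSC2, MET, RBM24 and TWIST2 were lost (adjusted p of 0.0503 to 0.116). With 3 samples per line, no single sample was tested as an outlier.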

How the results depend on the processing

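Of the 8 genes, 4 were called in EZH2 Y641F, 3 in EZH2 A677G, 2 in EZH2 H689A/F667I, 0 between the EZH2 GOF mutants and 1 between their mean and EZH2 H689A/F667I. Without single replicates these counts ranged from 2 to 4, 2 to 3, 0 to 2, 0 to 0 and 1 to 3. The counts of the wider lists, 26, 25, 1, 0 and 27, ranged from 17 to 26, 12 to 28, 0 to 1, 0 to 1 and 20 to 34. A minimum size of 1 for the log2 fold change, which lowers counts by construction, left 1, 1, 1, 0 and 0 of the 8 genes and 5, 5, 0, 0 and 4 of the wider lists. In EZH2 H689A/F667I, library totals and halved counts (added after seeing the data) left 0 of the 8 genes. At least 10 counts in every sample left 1, since PKP3 was then not tested. That filter removed PKP3 from every comparison, so its calls in EZH2 Y641F and EZH2 A677G dropped out as well. Between the mean of the EZH2 GOF mutants and EZH2 H689A/F667I, 2 were called with at least 10 counts in every sample and with the GC trend removed, where SPINT1 joined CDH2. Same-numbered samples did not deviate together (correlations of -0.0557 to 0.0501, with 2 of 12 samples closest to their own number), so the numbers do not pair the samples. The replicate block, alone or with the GC trend removed, left 1 of the 8 genes in EZH2 H689A/F667I and gave 2 between the mean of the EZH2 GOF mutants and EZH2 H689A/F667I. The gene lost was PKP3 (adjusted p = 0.0598 with the block and 0.0544 with the GC trend also removed), and the gene gained was SPINT1. It gave 4, 3 and 0 in the other comparisons. The cause of these changes was not tested.

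Log2 fold changes that turned their sign were all from values that were not called. Without single replicates, in EZH2 Y641F CDH1 ranged from -0.07 to 0.44 and PKP2 from -0.02 to 0.09. In EZH2 A677G PKP2 ranged from -0.02 to 0.01. In EZH2 H689A/F667I, CDH2 ranged from -0.06 to 0.02, PKP2 from -0.04 to 0.09 and SPINT1 from -0.04 to 0.27. For EZH2 Y641F minus EZH2 A677G, CDH2 ranged from -0.06 to 0.02, EPCAM from -0.37 to 0.22, PKP2 from -0.01 to 0.10 and SPINT2 from -0.06 to 0.05. EPCAM was 0.00 with library totals. For the GOF mean minus EZH2 H689A/F667I, PKP2 ranged from -0.07 to 0.06 and PKP3 from -0.15 to 0.33. PKP2 was -0.01 with upper-quartile factors. Those factors raised the share of lower calls over all genes from 72.8% to 80.3% in EZH2 Y641F, with 75.8% and 84.3% in EZH2 A677G and 69.6% and 79.4% for the GOF mean minus EZH2 H689A/F667I. Keeping the 175 genes at 0 in a line also changed the calls over all genes. In EZH2 H689A/F667I, 139 were then lower and 30 higher, against 23 and 20 without them. For EZH2 Y641F minus EZH2 A677G, 15 were lower and 163 higher, against 2 and 10. With EZH2 A677G, 1082 were lower and 312 higher, against 924 and 295. The exact test could not be made for the mean of both EZH2 GOF mutants. Among the 8 genes, PKP3 and EPCAM had the fewest counts, at 6 to 44 per sample.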
